A study of Mus musculus with 22 samples.

Results

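The DNA replication and S-phase genes are 36 mouse genes whose products load and run the replicative helicase, copy and join the new strands, supply deoxynucleotides, and maintain DNA methylation and chromatin behind the fork. The list goes by function, and its rule uses no measured value, although it was chosen with earlier results of these data known. The array's annotation pairs 34 of the 36 with 45 probe sets that name no other gene, among 8251 genes with such a probe set in the series. Of these 34 genes, 24 were bright enough to be tested (27 probe sets, among 4900 genes tested), which meant a mean log2 signal over the 22 arrays at or above 7.67, a signal of 203. The 10 dimmer members were Ccne2, Cdc7, Gmnn, Mcm6, Orc1, Orc2, Prim1, Prim2, Rfc4 and Rpa2. Pole had no probe set paired with it alone, and Tyms was represented only on probe sets shared with other genes, so neither was analysed here. The tested members just inside the filter on their mean were Pola1 (7.69), Chaf1a (7.73) and Rpa3 (7.85). For 5 tested members (these 3, Cdc6 and Pold2) the mean of at least 1 group lay below it.

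The members were followed in back skin of DN-CLIM mice and of WT littermates, all of the CB6F1 strain, at postnatal days 6, 14 and 23 (P6, P14 and P23). The DN-CLIM transgene encodes a protein that blocks the CLIM (Ldb) cofactors, which bridge LIM domain transcription factors, and the keratin 14 promoter that drives it is active in basal keratinocytes of epidermis and hair follicles. Each genotype had 5 arrays at P6, 3 at P14 and 3 at P23. According to the series description, follicles are still forming and growing hair at P6 and P14, and P23 is the first telogen, the resting phase of the hair cycle. The RNA came from whole back skin, so transgene-expressing keratinocytes were measured together with dermis, fat, muscle and blood cells, and fewer cells of a type cannot be told apart from less RNA per cell. The series description counts 3 to 5 mice of each genotype per age without saying which array holds which animal, and the p-values measure the spread between arrays.

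Before S phase, origins are licensed when the origin recognition complex and Cdc6 load the MCM2-7 ring onto DNA. Cdc7 kinase and cyclin E with Cdk2 then activate the ring together with Cdc45, the polymerases copy both strands, and the sliding clamp PCNA, loaded by replication factor C, holds them on the template. Transcription of many of these genes rises at the G1/S boundary under E2F factors. In skin, cells in S phase lie mainly in the basal epidermis and, during hair growth, in the matrix at the base of the follicle.

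Every value below is an intensity, the MAS5 signal on its linear scale, or a difference between log2 signals. The arrays share a trimmed mean of 500.2 to 500.3, and their medians lay between 7.56 and 7.80 on the log2 scale. DN-CLIM P6 replicate 5 correlated least with the other arrays of its group (mean r = 0.933, against 0.943 to 0.947 for the rest of that group). It also had the lowest fitted array weight, 0.159. Members whose lowest of the 5 DN-CLIM P6 values came from this array included Mcm5, Mcm7, Rrm1, Tk1, Cdc45 and Ung. Those whose highest value came from this array included Pola1, Pola2, Pold1, Pold2, Rpa3, Dnmt1, Chaf1a and Ccne1. Leaving it out moved the count of calls by at most 2 in any comparison below, to 12 from 10 in the comparison of P14 with P6 in DN-CLIM skin. Levels of different probe sets are not compared, since probe sets differ in sensitivity.

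From P6 to P23 most tested members fell in both genotypes. Between P23 and P6, 21 of the 24 tested members were lower in DN-CLIM skin and 21 in WT skin (limma, adjusted p at or below 0.05 over 6211 probe sets), and none was higher. Over all probe sets tested, 28.2% were lower and 26.7% higher in DN-CLIM skin, and 28.3% lower and 25.7% higher in WT skin. The same 20 members were lower in both genotypes (95.2% of each list of lower calls). Over all probe sets, 23.6% were lower in both, which is 83.9% of the DN-CLIM and 83.6% of the WT lower calls. Rfc1 passed in DN-CLIM skin alone, Rpa3 in WT skin alone, and Pola1 and Ung, at its brighter probe set, in neither. These counts cannot be read as the share of all 36 members, since a gene high at P6 alone could reach the filter on its mean. The median log2 change of the 24 members was -0.83 in DN-CLIM and -0.85 in WT, against a median of all tested probe sets near 0. Relative to the WT P6 mean of each gene, the median member in each array spanned -0.12 to 0.00 at P6, -0.37 to -0.28 at P14 and, by P23, -0.87 to -0.76 in DN-CLIM skin. In WT skin the arrays spanned -0.05 to 0.08 at P6, -0.41 to -0.37 at P14 and, by P23, -1.03 to -0.64. The array medians of the 3 ages did not overlap in either genotype.

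**Figure D1:**
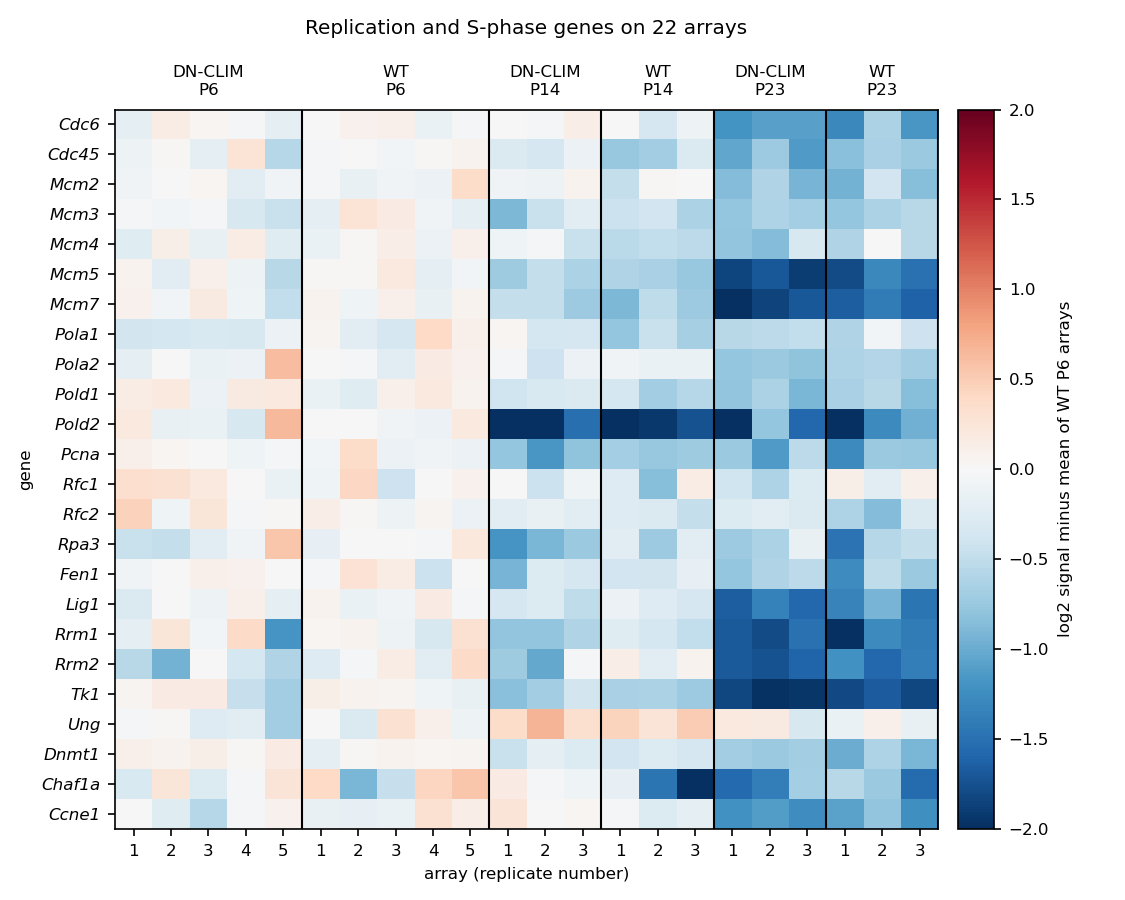
The 24 tested members (rows) in the 22 arrays (columns), coloured by log2 signal minus the gene's mean in WT P6. Most members move to the lower end of the colour scale at P23 in both genotypes, with array medians of -0.87 to -0.76 in DN-CLIM and -1.03 to -0.64 in WT.

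The helicase genes held some of the steepest falls. Mcm5 and Mcm7 encode subunits of the MCM2-7 ring, and Cdc6 encodes the loader that places it on origins. The promoters of 3 MCM genes and of Cdc6 are shown because their RNAs are described next and because each holds a word resembling an E2F site. They run 5′ to 3′ from 250 bases before to 50 bases after the annotated start (RefSeq, GRCm38.p6). Capitals mark the E2F-like words (TTTCCCGC, TTTCGCGC, TTTGCCGC or TTTGGCGC) and the CCAAT box, on either strand.
Mcm3, chr1:20820263-20820562, minus strand: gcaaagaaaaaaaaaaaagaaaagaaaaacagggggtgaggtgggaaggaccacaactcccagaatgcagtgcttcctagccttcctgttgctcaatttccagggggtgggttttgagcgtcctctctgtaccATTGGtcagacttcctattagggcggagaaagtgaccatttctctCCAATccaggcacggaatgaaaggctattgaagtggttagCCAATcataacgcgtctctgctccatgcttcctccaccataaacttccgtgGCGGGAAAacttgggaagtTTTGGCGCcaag
Mcm5, chr8:75109259-75109558, plus strand: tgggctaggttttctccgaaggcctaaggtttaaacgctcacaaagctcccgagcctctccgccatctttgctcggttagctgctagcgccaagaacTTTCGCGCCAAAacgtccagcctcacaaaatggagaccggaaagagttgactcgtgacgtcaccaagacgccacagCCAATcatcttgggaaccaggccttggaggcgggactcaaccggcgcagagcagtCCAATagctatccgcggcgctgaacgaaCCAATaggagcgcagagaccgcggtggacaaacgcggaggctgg
Mcm7, chr5:138171834-138172133, minus strand: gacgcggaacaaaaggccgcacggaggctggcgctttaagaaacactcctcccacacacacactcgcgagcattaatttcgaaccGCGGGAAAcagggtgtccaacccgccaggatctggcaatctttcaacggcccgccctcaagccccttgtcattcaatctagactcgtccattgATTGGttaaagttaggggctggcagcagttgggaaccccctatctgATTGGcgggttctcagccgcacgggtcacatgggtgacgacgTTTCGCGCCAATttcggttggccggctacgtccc
Cdc6, chr11:98907901-98908200, plus strand: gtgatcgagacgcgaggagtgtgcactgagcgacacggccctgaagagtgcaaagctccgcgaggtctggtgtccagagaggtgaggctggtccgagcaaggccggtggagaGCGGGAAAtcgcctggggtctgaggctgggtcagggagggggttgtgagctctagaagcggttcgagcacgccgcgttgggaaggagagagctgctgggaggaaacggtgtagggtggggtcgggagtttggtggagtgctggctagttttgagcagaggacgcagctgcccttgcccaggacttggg
The 2 E2F-like words of Mcm5 overlap each other, and 1 of those of Mcm7 overlaps a CCAAT box. Such windows were at hand for 30 members, 39 windows in all. An E2F-like word stood in 10 of the 39 (25.6%), against 744 of 32851 windows of the same length over all genes (2.26%). The CCAAT box stood in 56.4% of the members' windows and in 37.4% of all windows. The 10 members with an E2F-like word were Mcm3, Mcm5, Mcm6, Mcm7, Orc1, Cdc6, Pola1, Pold1, Lig1 and Dnmt1. A second Mcm7 window, not shown, held none, and Lig1 and Dnmt1 also had windows without an E2F-like word. No such word stood in the windows of Mcm2, Cdc45, Tk1, Rrm1, Rrm2, Ccne1 and Pcna, which also fell and are described below. For Mcm4 no window was at hand. A match in letters is a description of the window, and binding was not measured.

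Mcm5 was lower in each successive age. Its signal in DN-CLIM skin was 2162, 1785, 2224, 1923 and 1403 at P6, 1264, 1485 and 1332 at P14 and, by P23, 581, 640 and 554. In WT skin it was 2099, 2100, 2345, 1816 and 1977 at P6, 1359, 1324 and 1227 at P14 and, by P23, 598, 849 and 733. In WT skin no 2 ages overlapped, while in DN-CLIM skin replicate 5 at P6 fell within the P14 range. The log2 change between P23 and P6 was -1.67 ± 0.13 in DN-CLIM skin (SE, adjusted p = 6.4e-10) and -1.52 ± 0.13 in WT skin (adjusted p = 3e-09).

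Mcm7 fell by about as much. Its signals in DN-CLIM skin were 1344, 1214, 1433, 1188 and 898 at P6, 904, 903 and 768 at P14 and, by P23, 289, 350 and 390. In WT skin they were 1320, 1183, 1351, 1137 and 1331 at P6, 680, 890 and 766 at P14 and, by P23, 403, 479 and 409. Every P23 signal was below every earlier signal of the same genotype. Between P23 and P6 the level was 3.52-fold lower in DN-CLIM skin (log2 -1.82 ± 0.14, adjusted p = 2.6e-10) and 2.94-fold lower in WT skin (log2 -1.56 ± 0.14, adjusted p = 3.4e-09).

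The other tested MCM subunits had smaller changes. Mcm2 changed by log2 -0.74 ± 0.14 in DN-CLIM skin and -0.73 ± 0.14 in WT skin between P23 and P6 (adjusted p = 0.00017 and 0.00021). For Mcm3 the changes were -0.51 ± 0.15 and -0.65 ± 0.15 in the same order, with adjusted p = 0.0052 and 0.00069. Mcm4 changed by -0.59 ± 0.15 in DN-CLIM skin (adjusted p = 0.0025) and by -0.39 ± 0.15 in WT skin (adjusted p = 0.038). The Mcm4 call in WT skin did not hold without WT P23 replicate 1 (adjusted p = 0.19) and in 4 other fits that left out an array. A dimmer probe set of Mcm3 fell in DN-CLIM skin (-0.59 ± 0.17, adjusted p = 0.0047) and had -0.34 ± 0.17 in WT skin (adjusted p = 0.097).

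Cdc6 and Cdc45, which load and complete the helicase, were also lower at P23. Cdc6 had signals of 297, 372, 345, 326 and 299 at P6, 333, 327 and 367 at P14 and, by P23, 146, 157 and 157 in DN-CLIM skin. The WT signals were 333, 358, 359, 306 and 327 at P6, 335, 268 and 314 at P14 and, by P23, 137, 217 and 150. The P6 and P14 arrays overlapped in both genotypes, and the fall that passed lay after P14 (P23 minus P14, -1.16 ± 0.16 in DN-CLIM, adjusted p = 4.3e-06, and -0.88 ± 0.16 in WT, adjusted p = 0.00011). Cdc45 was lower at P23 than at P6 by log2 -0.85 ± 0.16 in DN-CLIM skin (adjusted p = 9.2e-05) and -0.74 ± 0.16 in WT skin (adjusted p = 0.00041).

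**Figure D2:**
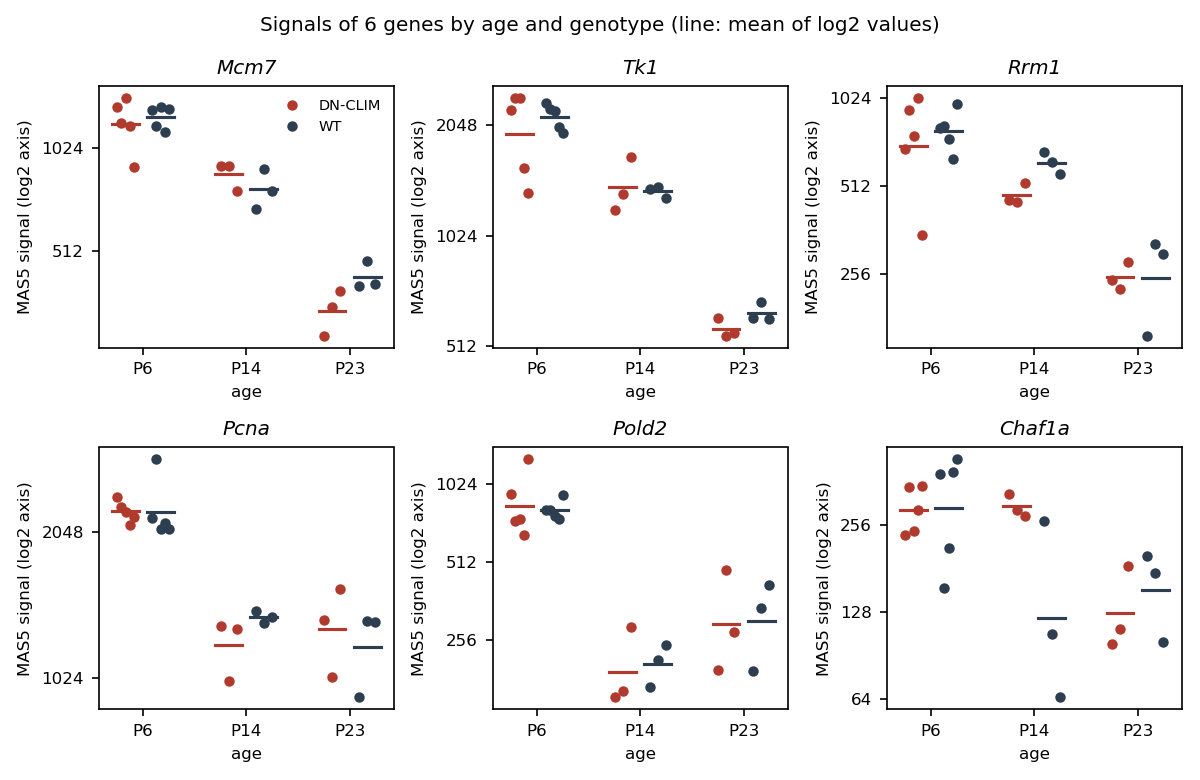
Signal of Mcm7, Tk1, Rrm1, Pcna, Pold2 and Chaf1a in each array, by age and genotype, with a bar at each group mean. Mcm7 and Tk1 step down at both ages, while Pcna and Pold2 are down by P14; Pcna spans 1011 to 1310 in DN-CLIM and 1330 to 1407 in WT at P14.

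Among the polymerase genes, both tested subunits of polymerase delta were lower by P14. Pold2, the accessory subunit of polymerase delta, had signals of 937, 739, 752, 652 and 1280 at P6, 154, 163 and 289 at P14 and, by P23, 197, 476 and 275 in DN-CLIM skin. Among WT arrays they were 813, 818, 774, 752 and 933 at P6, 169, 215 and 245 at P14 and, by P23, 194, 340 and 420. All P14 and P23 arrays lay below all P6 arrays of their genotype. Between P14 and P6, Pold2 was 4.37-fold lower in DN-CLIM skin (log2 -2.13 ± 0.28, adjusted p = 7.2e-06) and 3.94-fold lower in WT skin (-1.98 ± 0.28, adjusted p = 1.7e-05), the largest fall of the list in this step. Its only tested probe set carries the suffix for probes chosen under relaxed rules, and the gene was measured by it alone.

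Pold1, the catalytic subunit of the same enzyme, had smaller changes. Its signals were 853, 886, 715, 875 and 890 at P6, 589, 631 and 636 at P14 and, by P23, 450, 500 and 409 in DN-CLIM skin. WT skin had signals of 707, 652, 831, 891 and 814 at P6, 606, 480 and 522 at P14 and, by P23, 496, 529 and 431. The P6 and P14 arrays did not overlap in either genotype. Pold1 was lower at P14 than at P6 in DN-CLIM (-0.44 ± 0.12, adjusted p = 0.0093) and in WT (-0.54 ± 0.12, adjusted p = 0.0026).

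Polymerase alpha begins each new strand together with primase. Pola2, the B subunit, fell by log2 -0.81 ± 0.14 in DN-CLIM skin and -0.63 ± 0.14 in WT skin between P23 and P6 (adjusted p = 5.8e-05 and 0.00085). A second, dimmer Pola2 probe set spread from 74.6 to 572 over the arrays and passed in no comparison between ages. Pola1, the catalytic subunit, passed neither comparison of P23 with P6 (-0.23 ± 0.18 in DN-CLIM, adjusted p = 0.27, and -0.36 ± 0.18 in WT, adjusted p = 0.091). It was lower at P14 than at P6 in WT skin (-0.62 ± 0.18, adjusted p = 0.015), a call lost without WT P14 replicate 1 (adjusted p = 0.075). In DN-CLIM skin the same change was 0.08 ± 0.18 (adjusted p = 0.78), and the difference between the genotypes, 0.70, had adjusted p = 0.68.

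Pcna, the sliding clamp, was lower by P14, and its later change did not pass. In DN-CLIM skin its signals were 2416, 2309, 2252, 2119 and 2200 at P6, 1310, 1011 and 1294 at P14 and, by P23, 1350, 1029 and 1561. In WT skin they were 2186, 2890, 2075, 2136 and 2079 at P6, 1407, 1330 and 1369 at P14 and, by P23, 935, 1341 and 1335. P6 stood clear of the later ages, which overlapped each other. P14 was lower than P6 by log2 -0.92 ± 0.14 in DN-CLIM skin (adjusted p = 5.6e-05) and -0.72 ± 0.14 in WT skin (adjusted p = 0.00076), and the changes from P14 to P23 were 0.11 in DN-CLIM and -0.21 in WT.

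Genes of the clamp loader and of the single-strand binding protein were compared between P23 and P6. Rfc2, a small subunit of replication factor C, was lower at P23 than at P6 in DN-CLIM (-0.38 ± 0.13, adjusted p = 0.015) and WT (-0.59 ± 0.13, adjusted p = 0.00049). Rfc1, its large subunit, passed in DN-CLIM skin (-0.57 ± 0.21, adjusted p = 0.022) and had 0.00 ± 0.21 in WT skin (adjusted p = 1). Rpa3, the smallest subunit of replication protein A, passed in WT (-0.85 ± 0.24, adjusted p = 0.0054; 0.081 without WT P23 replicate 1) and in DN-CLIM had -0.37 ± 0.24 (adjusted p = 0.21). The DN-CLIM and WT changes of Rfc1 and Rpa3 did not differ past the threshold (adjusted p = 0.99 for each). The DN-CLIM calls of Rfc1 and Rfc2 were lost without 1 of the P23 arrays (adjusted p = 0.1 without replicate 2 and 0.051 without replicate 3).

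Fen1 and Lig1 trim and seal the fragments of the lagging strand. In DN-CLIM skin Lig1 had signals of 631, 767, 718, 829 and 678 at P6, 607, 638 and 539 at P14 and, by P23, 246, 302 and 260. In WT skin it had 816, 706, 735, 869 and 749 at P6, 712, 649 and 613 at P14 and, by P23, 307, 405 and 281. All P23 arrays lay well below the earlier ones, by log2 -1.14 ± 0.14 in DN-CLIM (adjusted p = 6.1e-07) and -1.01 ± 0.14 in WT (adjusted p = 3.4e-06) against P14. Fen1, the flap endonuclease, was lower at P23 than at P6 by -0.66 ± 0.18 in DN-CLIM (adjusted p = 0.0035) and -0.83 ± 0.18 in WT (adjusted p = 0.00044).

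The genes of deoxynucleotide supply fell in both genotypes. Tk1, cytosolic thymidine kinase, had signals of 2241, 2416, 2425, 1562 and 1334 at P6, 1203, 1327 and 1678 at P14 and, by P23, 610, 547 and 555 in DN-CLIM skin. The WT signals were 2343, 2259, 2229, 2016 and 1943 at P6, 1373, 1388 and 1295 at P14 and, by P23, 612, 675 and 608. The WT arrays separated by age without overlap, while DN-CLIM P6 replicates 4 and 5 lay within the P14 range. Tk1 was 3.4-fold lower in DN-CLIM and 3.41-fold lower in WT at P23 than at P6 (log2 -1.77 ± 0.16 in each, adjusted p = 3.9e-09 in each). Its earlier step in DN-CLIM skin (-0.48 ± 0.16, adjusted p = 0.027) lost its call in 5 of 8 fits without 1 array, with adjusted p up to 0.14. It was -0.76 ± 0.10 with P6 arrays 1 to 3 alone (adjusted p = 3.8e-05) and -0.06 ± 0.13 with P6 arrays 4 and 5 alone (adjusted p = 0.79), and the labels do not say whether these arrays were processed apart.

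Rrm1 and Rrm2 encode the large and small subunits of ribonucleotide reductase. Rrm1 had 688, 934, 762, 1028 and 349 at P6, 459, 454 and 524 at P14 and, by P23, 245, 229 and 282 in DN-CLIM skin. In WT skin it had 814, 824, 742, 636 and 976 at P6, 670, 620 and 565 at P14 and, by P23, 158, 326 and 300. At P6 the DN-CLIM arrays ranged widely, and P23 lay below the earlier ages in both genotypes. The log2 change between P23 and P14 was -0.93 ± 0.29 in DN-CLIM (adjusted p = 0.0097) and -1.31 ± 0.29 in WT (adjusted p = 0.00062).

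Rrm2 signals in DN-CLIM skin were 465, 354, 687, 532 and 448 at P6, 419, 335 and 666 at P14 and, by P23, 213, 203 and 226. Among WT arrays they were 568, 666, 759, 578 and 885 at P6, 750, 585 and 714 at P14 and, by P23, 296, 230 and 261. P6 and P14 overlapped throughout, and P23 lay below both. The change between P23 and P14 was -1.08 ± 0.23 in DN-CLIM (adjusted p = 0.00042) and -1.38 ± 0.23 in WT (adjusted p = 3e-05).

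Dnmt1, which copies CpG methylation onto the new strand, fell by similar amounts in both steps. Its DN-CLIM signals were 2085, 2068, 2122, 1973 and 2192 at P6, 1439, 1706 and 1621 at P14 and, by P23, 1200, 1169 and 1209. WT skin had signals of 1727, 1977, 2054, 2002 and 2033 at P6, 1498, 1615 and 1537 at P14 and, by P23, 981, 1267 and 1035. No 2 ages overlapped in either genotype. Between P23 and P6 it changed by -0.81 ± 0.09 in DN-CLIM (adjusted p = 1.1e-07) and by -0.85 ± 0.09 in WT (adjusted p = 5.8e-08).

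Chaf1a, the large subunit of the chromatin assembly factor that deposits histones behind the fork, varied widely between arrays. Its DN-CLIM signals were 236, 347, 244, 289 and 350 at P6, 329, 289 and 276 at P14 and, by P23, 99.5, 112 and 184. In WT skin they were 386, 155, 214, 392 and 432 at P6, 264, 107 and 64.9 at P14 and, by P23, 200, 175 and 101. WT signals of all ages overlapped, and in DN-CLIM skin P23 lay below the other ages. Between P23 and P6 it was lower in DN-CLIM (-1.19 ± 0.37, adjusted p = 0.01) and in WT (-0.95 ± 0.37, adjusted p = 0.037), the WT call being lost in 5 of 8 fits without 1 array (adjusted p up to 0.21) and the DN-CLIM call without P23 replicate 1 (adjusted p = 0.058).

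Ccne1 and Ung complete the tested list. Ccne1, cyclin E1, had signals of 770, 652, 515, 757 and 817 at P6, 915, 767 and 789 at P14 and, by P23, 333, 354 and 326 in DN-CLIM skin. In WT skin it had 696, 688, 706, 947 and 845 at P6, 757, 633 and 680 at P14 and, by P23, 368, 444 and 329. The P6 and P14 arrays overlapped, and P23 lay below them (P23 minus P14, -1.28 ± 0.16 in DN-CLIM, adjusted p = 8.8e-07, and -0.87 ± 0.16 in WT, adjusted p = 0.00012).

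Ung, uracil-DNA glycosylase, was the single member called higher in a comparison of ages, and its probe sets disagreed. On the brighter one, again of the relaxed kind, the DN-CLIM signals were 940, 981, 809, 828 and 594 at P6, 1242, 1553 and 1197 at P14 and, by P23, 1107, 1095 and 770. The WT signals were 959, 788, 1194, 1033 and 902 at P6, 1313, 1156 and 1377 at P14 and, by P23, 886, 1040 and 876. P14 stood above P6 in DN-CLIM (0.69 ± 0.16, adjusted p = 0.0029), with 0.40 ± 0.16 in WT (adjusted p = 0.078). On the dimmer probe set the same changes were -0.12 ± 0.11 and -0.08 ± 0.11 (adjusted p = 0.47 and 0.66), and P23 was below P6 in DN-CLIM (-0.60 ± 0.11, adjusted p = 0.0001) and in WT (-0.39 ± 0.11, adjusted p = 0.0055). The change from P6 to P14 thus had opposite signs on the 2 probe sets.

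Of the 10 members below the filter, fitted without it, 2 fell in both genotypes between P23 and P6. Rfc4, another clamp loader subunit, changed by -1.36 ± 0.22 in DN-CLIM (adjusted p = 3.2e-05) and -1.40 ± 0.22 in WT (adjusted p = 2.2e-05). Gmnn, geminin, which blocks relicensing in S and G2, changed by -1.44 ± 0.31 in DN-CLIM (adjusted p = 0.00081) and -1.22 ± 0.31 in WT (adjusted p = 0.0035). The other 8 passed in no comparison of ages. Of the tested members, 7 (Dnmt1, Lig1, Mcm5, Pold1, Rfc1, Rrm1 and Tk1) had a further probe set below the filter. Fitted without it, none of the 7 probe sets passed between P23 and P6, with 3 positive and 4 negative changes in each genotype. The dim probe set of Dnmt1 had 0.69 ± 0.48 in DN-CLIM and 0.21 ± 0.48 in WT, and that of Pold1 had 0.53 ± 0.33 in DN-CLIM and 0.42 ± 0.33 in WT, opposite in sign to the brighter ones. For Mcm5 (0.26 ± 0.61) the sign was opposite in DN-CLIM, and for Lig1 (0.88 ± 0.66) in WT. Mcm6, at signals of 8.2 to 103, was too dim to set beside its partners in the MCM ring.

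The step from P6 to P14 is called early here, and that from P14 to P23 late. Between P14 and P6, 9 of 24 were lower and 1, Ung, higher in DN-CLIM skin, and 12 were lower and 0 higher in WT skin. The background was 14.7% lower and 12.1% higher in DN-CLIM, and 11.3% lower and 9.43% higher in WT. Between P23 and P14, 16 were lower in DN-CLIM and 13 in WT, and none was higher. The background was 27.2% lower and 27.1% higher in DN-CLIM, and 27.1% lower and 27% higher in WT. The 10 early calls in DN-CLIM skin became 6 without DN-CLIM P14 replicate 1 and 5 when the P6 and P14 DN-CLIM arrays were fitted alone.

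Lower calls in the early step were shared by 7 genes, Dnmt1, Mcm5, Mcm7, Pcna, Pold1, Pold2 and Tk1, which are 77.8% of the lower DN-CLIM calls and 58.3% of the WT calls. Over all probe sets, 7.84% were lower in both, which is 53.2% of the DN-CLIM and 69.2% of the WT lower calls. In DN-CLIM skin Fen1 and Rpa3 passed as well, and in WT skin Cdc45, Chaf1a, Mcm3, Mcm4 and Pola1. In the late step 12 were shared (Ccne1, Cdc6, Dnmt1, Lig1, Mcm2, Mcm5, Mcm7, Pola2, Rrm1, Rrm2, Tk1 and Ung), 75.0% of the DN-CLIM calls and 92.3% of the WT calls. Over all probe sets, 22.6% were lower in both, which is 83.2% of the DN-CLIM and 83.5% of the WT lower calls. Leaving out 1 array at a time ended the early calls of Fen1, Mcm5, Mcm7, Rpa3 and Tk1 in DN-CLIM and of Cdc45, Chaf1a, Dnmt1, Mcm3, Mcm4 and Pola1 in WT. It ended the late calls of Chaf1a, Mcm4 and Ung in DN-CLIM and of Fen1 and Ung in WT. The test of the difference between genotypes called 0 members for either step or for P23 against P6 (limma). At an unadjusted p under 0.05 there were 2 for the early step, 5 for the late step and 0 for P23 against P6, where 6.7%, 5.1% and 4.88% of all probe sets reached that p. After adjustment 0.0161%, 0% and 0.0161% of all probe sets were called. Calls in a single genotype are therefore not shown to be particular to it.

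The difference between the 2 steps was then tested within each genotype, in a contrast chosen after the values were seen. In DN-CLIM skin the change of 9 members was more negative after P14 than before it (Ccne1, Cdc6, Lig1, Mcm2, Mcm5, Mcm7, Rrm2, Tk1 and Ung). For 3 members it was more positive (Pcna, Pold2 and Rpa3). In WT skin it was more negative for 5 (Ccne1, Cdc6, Lig1, Rrm2 and Ung) and more positive for 2 (Pola1 and Pold2). The background for a more negative late step was 20.3% in DN-CLIM and 19.4% in WT, and for a more positive one 21.7% and 20.9%. The WT counts, 5 of 24 and 2 of 24, are near it or below it, as is 3 of 24 in DN-CLIM. Without WT P14 replicate 1 the WT count was 3 in all, and without replicate 3 it was 4. Of the DN-CLIM calls, that of Rrm2 was lost in 8 of 11 fits without 1 array (adjusted p up to 0.41). That of Tk1 was lost in 4, Rpa3 in 3, Mcm5 and Mcm7 in 2 each, and Mcm2 in 1. On the dimmer Ung probe set the contrast did not pass (-0.37 ± 0.21 in DN-CLIM, adjusted p = 0.16, and -0.23 ± 0.21 in WT, adjusted p = 0.41). For Ccne1 the late change minus the early one was -1.53 ± 0.27 in DN-CLIM (adjusted p = 0.00012) and -0.70 ± 0.27 in WT (adjusted p = 0.044, lost in 8 of 11 fits without 1 array), and for Pold2 2.73 ± 0.51 (adjusted p = 0.00021) and 2.52 ± 0.51 (adjusted p = 0.00046).

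**Figure D3:**
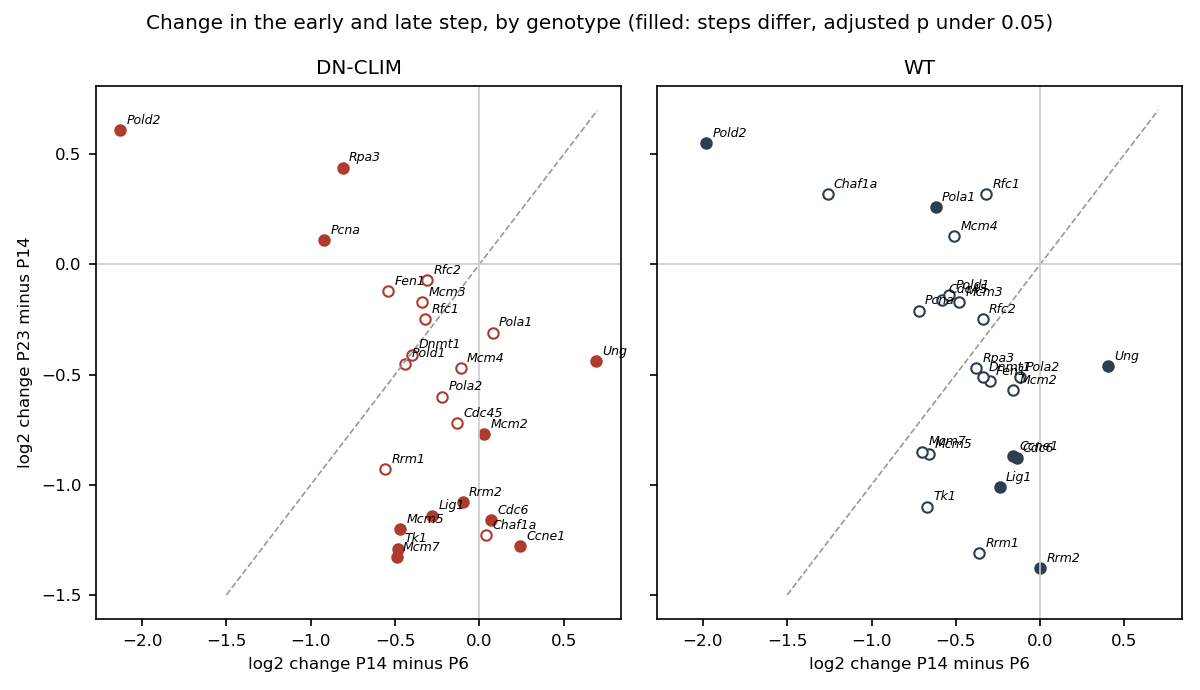
Log2 change of each tested member from P6 to P14 (horizontal) and from P14 to P23 (vertical), DN-CLIM left and WT right, filled where the steps differ; the dashed line marks equal steps. Both axes use the P14 arrays, so an error there moves a point on both axes in opposite directions; Pold2 sits far left at -2.13 in DN-CLIM and -1.98 in WT, while Ccne1, Cdc6 and Rrm2 lie low and near 0 on the horizontal axis.

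The genotype comparison asks whether dominant-negative CLIM changed these genes at a given age. No member passed at any age or on the average of the ages, in either direction. At an unadjusted p under 0.05 there were 1 member at P6, 4 at P14, 2 at P23 and 3 on the average, where 8.18%, 6.26%, 4.57% and 7.02% of all probe sets reached that p. The smallest adjusted p values of the members were 0.53, 0.46, 0.95 and 0.25. After adjustment few probe sets passed on the whole array, 0.0322% at P6, 0.0644% at P14, 0.161% at P23 and 0.177% on the average. The median difference of the members, DN-CLIM minus WT, was -0.07 at P6, 0.05 at P14, -0.13 at P23 and -0.02 on the average. The 95% intervals had a median half-width of 0.27 at P6, 0.35 at P14 and P23, and 0.19 on the average, and these intervals are not adjusted for the number of probe sets tested, so a call needed a larger difference.

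Rrm2 had the smallest p of the average comparison. Its signals gave DN-CLIM minus WT differences of -0.49 at P6, -0.58 at P14 and -0.29 at P23. The average was -0.45 ± 0.12 (95% interval -0.71 to -0.20, adjusted p = 0.25), and the genotypes overlapped at P6 and P14 and separated at P23 alone. Chaf1a at P14 had the largest difference, 1.28 ± 0.42 (95% interval 0.41 to 2.15, adjusted p = 0.46), with 329, 289 and 276 in DN-CLIM and 264, 107 and 64.9 in WT. These did not overlap, as was true of 5 members higher and 3 lower in DN-CLIM at P14. Over all tested probe sets, 6.84% and 8.37% did so in those directions. At P23, 0 members were higher and 4 lower without overlap, against 7.71% and 7.21% of all.

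**Figure D4:**
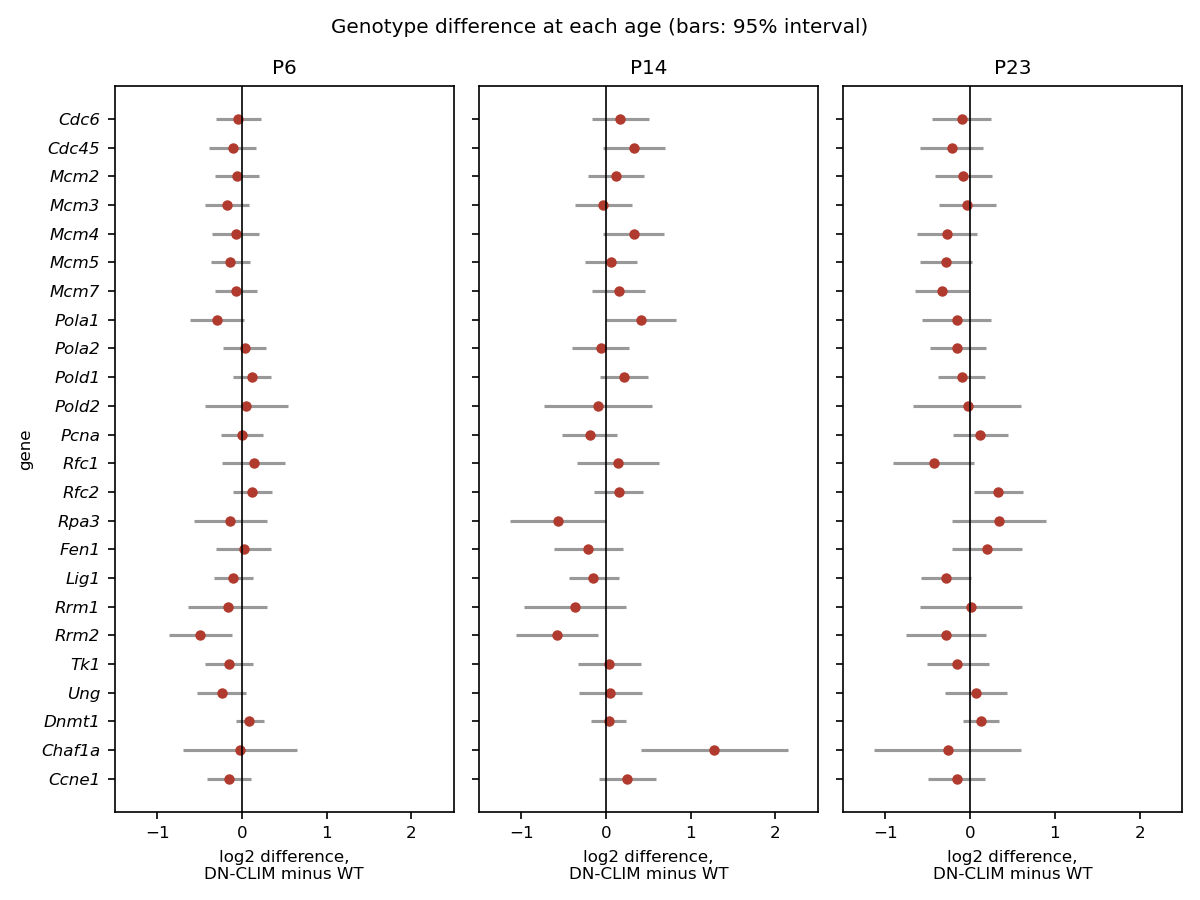
DN-CLIM minus WT log2 signal of each tested member at P6, P14 and P23, with 95% intervals. Medians are -0.07, 0.05 and -0.13, and no member passed after adjustment; Chaf1a at P14 is the point farthest from 0.

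The changes with age in DN-CLIM and WT skin, which share no array, were set side by side. Across the 24 members the DN-CLIM and WT changes from P6 to P23 had r = 0.90 (rho = 0.88), given as a description across genes that are not independent replicates and share arrays. Over all tested probe sets r was 0.96 (rho = 0.93). For P14 minus P6 the members had r = 0.73 (rho = 0.51), against 0.79 (rho = 0.73) over all. For P23 minus P14 they had r = 0.61 (rho = 0.59), against 0.96 (rho = 0.92) over all. In that step the members ran from -1.33 to 0.61 in DN-CLIM and from -1.38 to 0.55 in WT. All probe sets also held the hair shaft and matrix genes, with medians of -5.57 and -5.74. Since r depends on the range of changes, the values for members and for all are not directly comparable. The r of the P14 minus P6 step includes Pold2, at -2.13 in DN-CLIM and -1.98 in WT. The largest gaps in the early step were those of Chaf1a (0.04 ± 0.37 in DN-CLIM, -1.26 ± 0.37 in WT) and Pola1, and neither passed the test of the difference (adjusted p = 0.70 for Chaf1a).

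**Figure D5:**
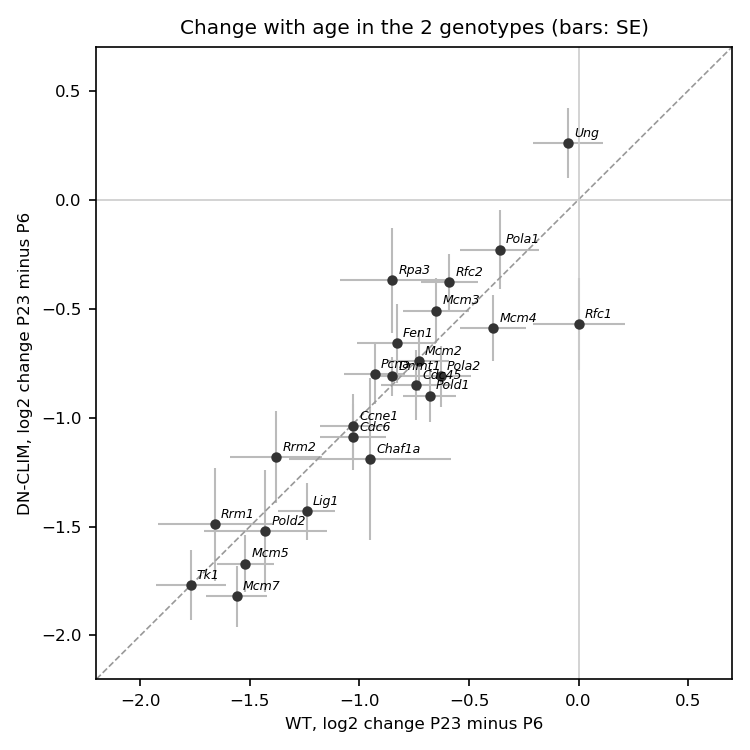
Log2 change from P6 to P23 of each tested member in DN-CLIM skin (vertical) against WT skin (horizontal), with SE bars. The points lie along the dashed line of equal change (r = 0.90), with Mcm7, Tk1 and Mcm5 lowest and Ung and Pola1 highest.

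Further genes of the pathway came from lists chosen by function. Of 21 other replication factors tested, 13 were lower in DN-CLIM and 15 in WT between P23 and P6, and none was higher. Over all probe sets, 28.2% were lower and 26.7% higher in DN-CLIM, and 28.3% and 25.7% in WT. In the late step 11 of these factors were lower and 3 higher in DN-CLIM, and 8 lower and 0 higher in WT. The background there was 27.2% lower and 27.1% higher in DN-CLIM, and 27.1% and 27% in WT. In WT the largest late changes among them were in Top1 (-1.52) and Top2a (-1.07), the topoisomerases that relieve twist, Rnaseh2a (-1.26), which removes RNA from DNA, and Chaf1b (-0.96), the partner of Chaf1a. In 14 further genes of nucleotide supply 6 were lower and 3 higher in DN-CLIM, and 5 lower and 3 higher in WT, shares near those of all probe sets in WT (28.3% lower and 25.7% higher). The late WT changes included Ctps (-2.57), which makes CTP, Shmt1 (-1.23) and Dck (-0.83), and the opposite change of Mthfd2 (0.68).

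Among 11 tested E2F and Rb family regulators of G1/S, 6 were lower and 1 higher in each genotype between P23 and P6, with late WT changes of -1.41 in Myb, -0.98 in E2f8 and -0.88 in Cks1b. Of 4 tested repair genes, 2 were lower in each genotype and 1, in DN-CLIM, higher. Over all probe sets, 28.2% were lower and 26.7% higher in DN-CLIM in that comparison, and 28.3% and 25.7% in WT. The 4 repair genes are too few to set apart from these shares. Among 26 mitosis and G2/M genes 24 were lower in each, with a median change of -1.65 in DN-CLIM and -1.69 in WT, against -0.83 and -0.85 for the S-phase members. The late WT changes there were -2.01 in Cdc20, which activates the anaphase-promoting complex, and -1.95 in Mki67.

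Markers of follicle and other cell types moved at the same ages. Over all probe sets, 27.2% were lower at P23 than at P14 in DN-CLIM and 27.1% in WT. All 14 tested hair shaft and matrix genes were lower at P23 than at P14 in both genotypes, with a median of -5.57 in DN-CLIM and -5.74 in WT. Their summed signal ranged from 101431 to 149318 at P6, 205880 to 245148 at P14 and 4370 to 4555 at P23 in DN-CLIM skin. In WT skin it was 108590 to 170101, 217418 to 250237 and 4205 to 4791 at the same ages. These sums were highest at P14, where the median S-phase member was below its P6 level in every array. Of 6 inner root sheath genes 5 were lower at P23 than at P14 in each genotype, with sums at those ages of 2273 to 2594 against 111463 to 135566 in DN-CLIM and 2491 to 2827 against 113624 to 129713 in WT.

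Macrophage genes ran the other way, 7 of 8 tested higher in DN-CLIM and 8 of 8 in WT at P23 against P14. Summed signals cover all 11 macrophage genes on the array, including Adgre1, Fcgr1 and Itgam, which were below the filter. These sums were 4995 to 5542, 4008 to 5081 and 11193 to 11953 at P6, P14 and P23 in DN-CLIM. They were 4609 to 5310, 3988 to 4639 and 11619 to 12722 in WT. Of 9 dermal fibroblast genes 8 were higher in each genotype in the same step, with sums at P23 against P14 of 89487 to 97016 against 50251 to 74707 in DN-CLIM and 94919 to 101684 against 60497 to 67036 in WT. Of 11 skeletal muscle genes 7 were higher and 1 lower in DN-CLIM, and 8 higher and 1 lower in WT. Of 7 adipocyte genes 5 were higher in each genotype, and of 7 endothelial genes 4. Of 5 erythroid genes 2 were lower in DN-CLIM and 3 in WT. The 1 tested lymphoid gene was higher in both. In this step 27.2% of all tested probe sets were lower and 27.1% higher in DN-CLIM, and 27.1% and 27% in WT. The endothelial, erythroid and lymphoid counts rest on too few genes to be set apart from these shares. Epidermal genes fell with the S-phase members in the early step, 6 of 8 tested lower and 1 higher in each genotype, with a median of -1.82 in DN-CLIM and -1.46 in WT. Over all probe sets, 14.7% were lower in that step in DN-CLIM and 11.3% in WT. In the late step 6 were higher and 1 lower in DN-CLIM, and 5 higher and 2 lower in WT. Between P23 and P6, 7 of 8 epidermal genes were lower in each genotype (median -1.19 in each), against 28.2% of all probe sets in DN-CLIM and 28.3% in WT. The epidermal sums cover all 11 epidermal genes on the array, including Krt14, Krt5 and Krt15. They were 142875 to 185098, 34747 to 37776 and 65598 to 74570 at P6, P14 and P23 in DN-CLIM. In WT they were 111896 to 155985, 35409 to 39332 and 62258 to 66946. Krt1 and Krt10 were among those tested, while the probe sets of Krt14, Krt5 and Krt15 were below the filter, so the basal layer was not tracked by its own keratins. No marker was at 0. The part of these shifts in the S-phase changes was not tested.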

How the data were processed

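Total RNA of whole back skin was labelled with biotin and hybridised to 22 single-colour arrays, 1 per sample, and groups and replicate numbers came from the titles. The deposited intensity values are the authors' MAS5 signals on a linear scale, per the submitters' processing notes; the sources used here do not give its version. Every deposited signal was above 0, and the 2% trimmed mean was 500.2 to 500.3 on every array. Of 12488 probe sets, 66 were controls and were left out; the platform annotation pairs 10855 with 1 gene, 396 with several and 1237 with none, and 10839 symbols were looked up by Entrez identifier in a RefSeq table (0 changed).

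Signals were taken as log2 with no further normalization, since the array medians spread over 0.24. Probe sets at or above the median mean signal (6211) were fitted with limma 3.58.1 in R 4.3.3, with 1 mean for each of 6 groups over all 22 arrays, eBayes with a trend, and Benjamini-Hochberg adjustment over the 6211. The number of arrays limits the precision. A gene was counted at its brightest tested probe set, and its other probe sets are named where they disagree. The fit was run on simulated data with known changes. The simulated noise was independent, normal and of equal spread in every array, so differences in quality between arrays were not covered. The members and the further lists were chosen with earlier results of these data known, so no p-value is adjusted over a list and no list is tested as a set. Members past the threshold may be named, with per-array values for those with the largest change; where under 5 pass, those with the smallest p; and up to 4 genes of each further list. Promoters came from a RefSeq table and proteins were not analysed here. The alternatives were quantile normalization, 50 added to each signal, no filter or a filter at the 60th percentile, array weights, only the groups compared, the replicate number as a block, the P6 arrays split by number, the probe set with the smallest p, and each array left out in turn. Arrays with the same number were not taken as pairs.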

Additional observations from a re-analysis of the deposited data

Results flagged for a closer look

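In groups of 5 arrays, a value was picked out when its gap to the nearest of the others took up more than 0.71 of the group's range (Dixon's 95% limit). Among the 24 members in both P6 groups, 48 sets of 5 values, 6 values in 5 arrays were picked out, and chance alone would pick out about 1 in 20. In DN-CLIM P6 replicate 5, Pola1 had a signal of 235 against 197 to 206 in the other 4 arrays, and Pola2 had 1054 against 606 to 693. Pold1 in DN-CLIM P6 replicate 3 was low, at 715 against 853 to 890. Mcm2 in WT P6 replicate 5 was high, at 914 against 640 to 697. Pcna in WT P6 replicate 2 was likewise high, at 2890 against 2075 to 2186. Dnmt1 in WT P6 replicate 1 was low, at 1727 against 1977 to 2054. The P14 and P23 groups have 3 arrays each and were not examined in this way.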

How the results depend on the processing

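No alternative reversed the sign of a change among the members followed in each comparison. These were the members past the threshold or, where under 5 passed, those with the smallest p. The comparisons of DN-CLIM with WT and the differences between their changes called 0 members under every alternative run. Ung was not followed between P23 and P6. On its probe set with the smallest p it was lower in DN-CLIM (log2 -0.60 ± 0.11, limma adjusted p = 0.0001) and WT (-0.39 ± 0.11, adjusted p = 0.0055). The count of called members between P23 and P6 ran from 19 to 21 without 1 array and from 18 to 23 under the other alternatives in DN-CLIM (21 as reported), and from 19 to 21 and 18 to 22 in WT (21). Between P23 and P14 it ran from 13 to 17 without 1 array and 14 to 16 otherwise in DN-CLIM (16), and from 11 to 13 and 12 to 13 in WT (13). Between P14 and P6 it ran from 6 to 12 without 1 array in DN-CLIM (10) and from 8 to 13 in WT (12). The DN-CLIM count was 5 with only the groups compared, where fewer arrays estimate the spread, and 6 with P6 arrays 4 and 5 only; these subsets of the P6 arrays were chosen after seeing the data. The contrast of the 2 steps, also added after seeing the data, called 8 to 12 without 1 array in DN-CLIM (12) and 3 to 7 in WT (7), 3 without WT P14 replicate 1 and 4 without WT P14 replicate 3.

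Arrays of DN-CLIM and WT with the same replicate number did not deviate together throughout (correlation of deviations -0.047 to 0.249), so the number was not taken as a pairing. At P23 alone, same-number arrays had 0.056 to 0.249 and different-number arrays -0.177 to 0.051. A pairing within P23 was not tested, since the replicate block uses 1 effect per number over all ages. At P6, DN-CLIM and WT arrays 1 to 3 had -0.005 to 0.189 with each other, and arrays 4 and 5 had 0.051 to 0.202. Pairs across these sets had -0.268 to 0.048. The P6 arrays of both genotypes thus deviated in part by set, which bears on each comparison with P6. The labels do not say what sets them apart. With the replicate block, called members were 21 in DN-CLIM and 19 in WT between P23 and P6, 16 and 13 between P23 and P14, 13 and 12 between P14 and P6, 12 and 5 for the contrast of steps, and 0 for each comparison of genotypes.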
